A study of Rattus norvegicus with 12 samples.

Results

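Chemokines, interleukins and their receptors were followed in rat liver as the genes whose symbol names a CC, CXC or CX3C chemokine, a receptor for one, or an interleukin or interleukin receptor chain. On the Affymetrix rat expression array, 116 probe sets with a single annotated gene matched this rule and stood for 91 genes of the 14217 genes measured. Where a gene had several probe sets, the one with the highest mean over the 12 arrays was taken, which concerned 17 of the 91 genes. The members comprised 16 CC chemokines, 12 CXC or CX3C chemokines, 12 chemokine receptors, 27 interleukin ligands, inhibitors or binding proteins, and 24 interleukin receptor chains.

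Long Evans Cinnamon rats (LEC/Crj) have a defective Atp7b, the transporter by which hepatocytes clear copper, and go through hepatitis to liver tumors as they age. The arrays comprised 4 of LEC tumor tissue at 67 weeks, 4 of LEC nontumor tissue at 67 weeks taken beside the tumors, 1 of Long Evans Agouti (LEA) liver at 67 weeks, and 1 each of LEC liver at 4, 26 and 39 weeks. For tumor and nontumor tissue each array held mixed RNA of 2 of the 8 paired specimens, and the other 4 arrays were single RNA pools, so that an array is a mixture of rats and the tests measure only the spread between such mixtures. Every label gave male rats kept free of specific pathogens. The nontumor tissue lay beside tumors in LEC livers, although its labels give the disease status as normal, as those of the LEA pool and the younger LEC pools do. The labels do not name the tumor type.

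The values were log2 expression values, so that a difference of 1 is 2-fold. Members were called higher or lower where the adjusted p of limma, a linear model fitted over all 31042 probe sets, was under 0.05. A value was taken as near background where it did not exceed the highest of the 27 probe sets for bacterial RNA on that array, a level of 5.52 to 5.67 on tumor arrays, 5.88 to 6.01 on nontumor arrays and 6.11 to 6.22 on the other 4 arrays. Of the 91 members, 74 lay above it on all 12 arrays. On all 12 arrays, 8 members were near it, namely Ccl11, Il5, Il6, Il10, Il17f, Il22ra2, Il36b and Il5ra. The labelled sex did not match 10 of the 12 arrays. Xist, an RNA made from the inactive X chromosome, lay between 11.36 and 13.12 on 10 arrays, against 5.27 in LEC at 26 weeks and 5.67 in LEC at 39 weeks. The Y-linked gene Eif2s3y lay between 3.65 and 3.81 on the same 10 arrays, against 8.90 and 8.18 in those pools, so the 26 and 39 week pools showed the male pattern of their labels and the other 10 arrays, among them all tumor and nontumor arrays, showed a female pattern against theirs. Atp7b averaged 8.59 ± 0.05 in LEC nontumor liver (SD, n = 4) and was 9.17 in the LEA pool (adjusted p = 0.0469).

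Chemokines are small secreted or membrane-bound proteins that guide leukocytes along their gradients, and each class binds its own receptors of the G protein coupled family. Interleukins are cytokines, and many of them signal through receptor chains to kinases of the Jak family or, for the interleukin 1 family, through Irak kinases to NF-kappaB. In liver they come from hepatocytes, Kupffer cells, endothelium, stellate cells, bile duct cells and infiltrating leukocytes, and they are known for drawing neutrophils, monocytes and lymphocytes into injured tissue.

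Promoter sequences are shown first because genes of the neutrophil-attracting group and Ccl20, which are known targets of NF-kappaB, were among those with the largest differences below. RefSeq promoter windows (build GRCr8) were matched for 69 of the 91 members, each running from 250 bases before the gene's start to 50 bases after it, 300 bases in all. The NF-kappaB (kappaB) consensus was searched on both strands, where a match and its overlapping reverse count as 1 window with a match. It was found in 7.51% of 33469 windows and in 15 of the 69 members' windows (21.7%). The first share counts every window of that length, not limited to 1 per gene, while each member counts with 1 window, so the shares are not strictly alike. By call in tumor against nontumor, the windows of 8 of 28 members that were higher held it (28.6%), of 5 of 18 that were lower (27.8%), and of 2 of 23 with no call (8.70%). Capitals mark the matches in 4 members that were higher in tumor and in Il1rap, which was lower, each written 5′ to 3′ along its gene.
Cxcl6, chr14:17596368-17596667, minus strand: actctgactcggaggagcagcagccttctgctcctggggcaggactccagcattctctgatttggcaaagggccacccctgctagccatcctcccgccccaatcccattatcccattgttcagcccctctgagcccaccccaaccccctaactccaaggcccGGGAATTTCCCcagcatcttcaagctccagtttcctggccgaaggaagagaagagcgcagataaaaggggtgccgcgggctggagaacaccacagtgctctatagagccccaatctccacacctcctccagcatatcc
Cxcl2, chr14:17467206-17467505, minus strand: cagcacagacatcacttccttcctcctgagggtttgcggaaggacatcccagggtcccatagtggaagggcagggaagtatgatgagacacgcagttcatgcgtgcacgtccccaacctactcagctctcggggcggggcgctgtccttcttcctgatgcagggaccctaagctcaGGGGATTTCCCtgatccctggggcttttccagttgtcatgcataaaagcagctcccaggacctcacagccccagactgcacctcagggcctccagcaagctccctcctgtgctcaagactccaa
Cxcl1, chr14:17479272-17479571, minus strand: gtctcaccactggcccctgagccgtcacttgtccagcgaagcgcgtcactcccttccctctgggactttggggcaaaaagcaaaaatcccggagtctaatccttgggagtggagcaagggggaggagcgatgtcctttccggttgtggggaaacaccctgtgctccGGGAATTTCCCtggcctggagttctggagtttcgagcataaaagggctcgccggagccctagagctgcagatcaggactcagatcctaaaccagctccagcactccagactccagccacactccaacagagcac
Ccl20, chr9:91836909-91837208, plus strand: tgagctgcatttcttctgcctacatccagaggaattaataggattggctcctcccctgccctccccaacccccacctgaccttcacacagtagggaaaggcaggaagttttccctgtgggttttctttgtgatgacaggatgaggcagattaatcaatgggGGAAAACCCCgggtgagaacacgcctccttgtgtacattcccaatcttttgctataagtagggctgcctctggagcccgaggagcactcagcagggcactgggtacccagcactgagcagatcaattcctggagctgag
Il1rap, chr11:87704293-87704592, minus strand: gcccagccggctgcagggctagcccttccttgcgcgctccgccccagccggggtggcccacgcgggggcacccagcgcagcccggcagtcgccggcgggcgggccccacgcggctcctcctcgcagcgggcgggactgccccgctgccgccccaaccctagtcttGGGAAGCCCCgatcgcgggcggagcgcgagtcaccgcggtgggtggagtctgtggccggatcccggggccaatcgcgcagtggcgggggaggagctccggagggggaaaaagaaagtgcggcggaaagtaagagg
The matching stretch started at position -88 from the gene start in Cxcl6, -84 in Cxcl1, -74 in Cxcl2, -89 in Ccl20 and -85 in Il1rap. Cxcl6 and Cxcl1 carried the same 11 letters, GGGAATTTCCC, which read as GGGGATTTCCC in Cxcl2. A match is a run of letters and does not show binding, and windows of members on both sides of the comparison held one. Only windows with a match are printed. Among other members with large rises, the windows of Ccl21, Cxcl16, Cxcl13, Cxcr4, Cx3cl1, Cxcl14 and Ccl28 held no match, and no window was matched for Ccl2.

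The members with the largest differences between tumor and nontumor liver were chemokines, with Cxcl6, Ccl2, Ccl20 and Ccl21 higher in tumor by 5.45, 3.93, 3.88 and 3.28 log2 units, while the coreceptor Il1rap and the alarmin Il1a were lower, at -2.25 and -2.21. In tumor, 34 of the 91 members were higher (37.4%, against 38.8% of all genes) and 23 were lower (25.3%, against 29.2% of all genes). With both directions together, 67.9% of all genes were called, and the members' shares lay near those of all genes. The shares of 38.8% higher and 29.2% lower over all genes also stand beside each class, list and marker count below. The balance of rises and falls depended on the scaling. After quantile normalization again, 28 members were higher and 23 lower, against 4379 and 4825 of all genes, and with array medians subtracted 29 members were higher and 29 lower, against 4843 and 5188 of all genes (5511 and 4147 as deposited). With the tumor and nontumor arrays alone in the fit, the same 34 and 23 members were called. The model fixes this outcome, since lone arrays add nothing to the spread, so it is no separate check. Past 2-fold, 20 members were higher (22%, against 14.0% of all genes) and 5 were lower (5.49%, against 6.91%). The median difference was 0.04 over the members and 0.07 over all genes, and it was 1.75 over the 12 CXC and CX3C ligands. The 4 tumor arrays did not overlap the 4 nontumor arrays for 48 members (52.7%, against 63.8% of all genes), 28 of them higher and 20 lower (against 36.1% and 27.7% of all genes). When arrays were normalized again, the median of all genes shifted from above to below 0 (0.07 as deposited and -0.04 with either rescaling), so that differences of about that size have no settled direction.

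**Figure D1:**
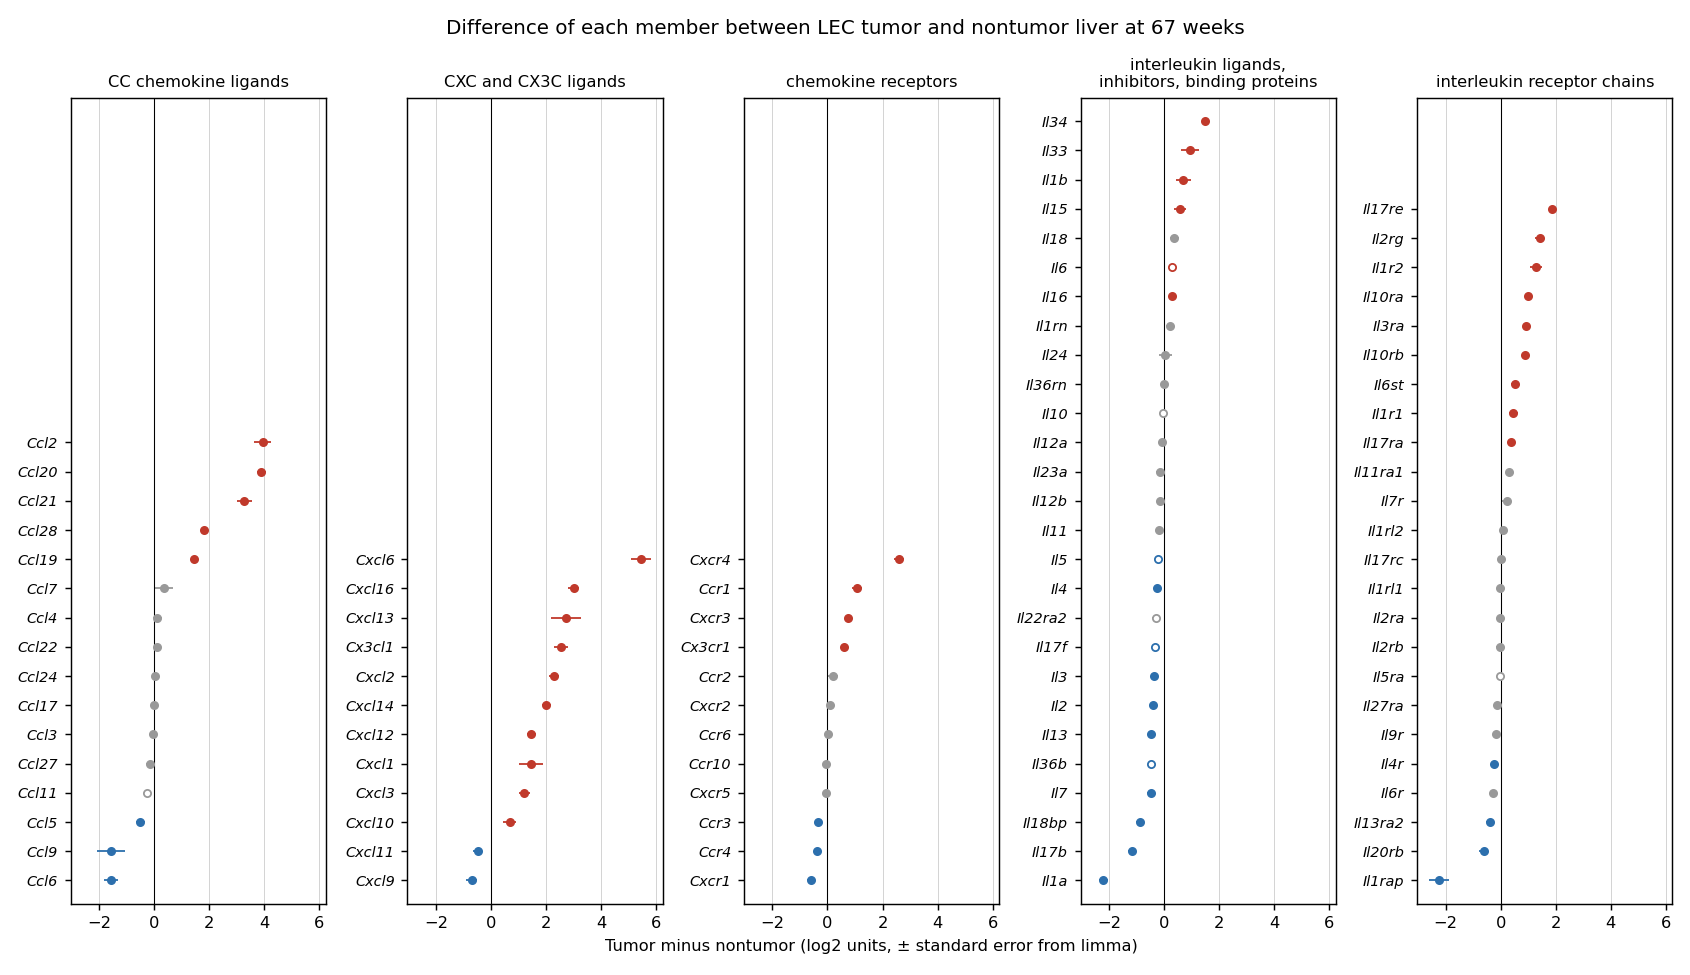
Difference of each of the 91 members between LEC tumor and nontumor liver at 67 weeks (horizontal axis, log2 units, bars are standard errors from limma), with 1 panel per class. Red points were higher and blue points lower at adjusted p under 0.05, grey points were not called, and open points were near background on all 12 arrays; in the CXC and CX3C panel 10 of 12 points are red, and Cxcl6 lies farthest right at 5.45.

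All 12 CXC and CX3C chemokines passed the test, 10 of them higher in tumor and 2 lower. Under both rescalings 9 were called higher and 2 lower. The ligands of Cxcr1 and Cxcr2, receptors that draw neutrophils, formed one group. Cxcl6, a chemokine of this group, had values of 11.90, 12.30, 12.80 and 11.80 on tumor arrays, against 6.16, 7.61, 7.16 and 6.08 on nontumor arrays. The groups lay far apart, with the lowest tumor array above the highest nontumor array by several units, and the difference was 5.45 ± 0.37 (SE, adjusted p = 7.1e-06), or 43.7-fold. In the single pools Cxcl6 was 6.44 in LEA and 6.23, 6.47 and 6.23 in LEC at 4, 26 and 39 weeks, which is the lower part of the nontumor range.

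Cxcl2 had values of 8.31, 8.30, 9.07 and 8.33 in tumor, against 6.17, 6.30, 6.39 and 6.03 in nontumor liver. Tumor array 3 was the highest, all tumor arrays lay above all nontumor arrays, and the difference was 2.28 ± 0.18 (adjusted p = 1.5e-05). Cxcl3 was 9.52, 9.72, 10.43 and 9.36 in tumor, against 8.52, 8.41, 8.62 and 8.61 in nontumor liver, a difference of 1.22 ± 0.21 (adjusted p = 9.9e-04). Array 3 was again the highest of the tumor arrays. Of the other 4 probe sets of Cxcl3, 2 were called higher and 2 were not called. Cxcl1 was 10.46, 10.65, 11.43 and 10.27 in tumor, against 8.26, 9.79, 10.28 and 8.67 in nontumor liver. The ranges of Cxcl1 overlapped by a narrow margin, since nontumor array 3 exceeded tumor array 4, and the nontumor arrays spread over more units than the tumor arrays. Cxcl1 differed by 1.45 ± 0.45 (adjusted p = 0.0191), and without nontumor array 4 by 1.26 with an adjusted p of 0.0503.

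**Figure D2:**
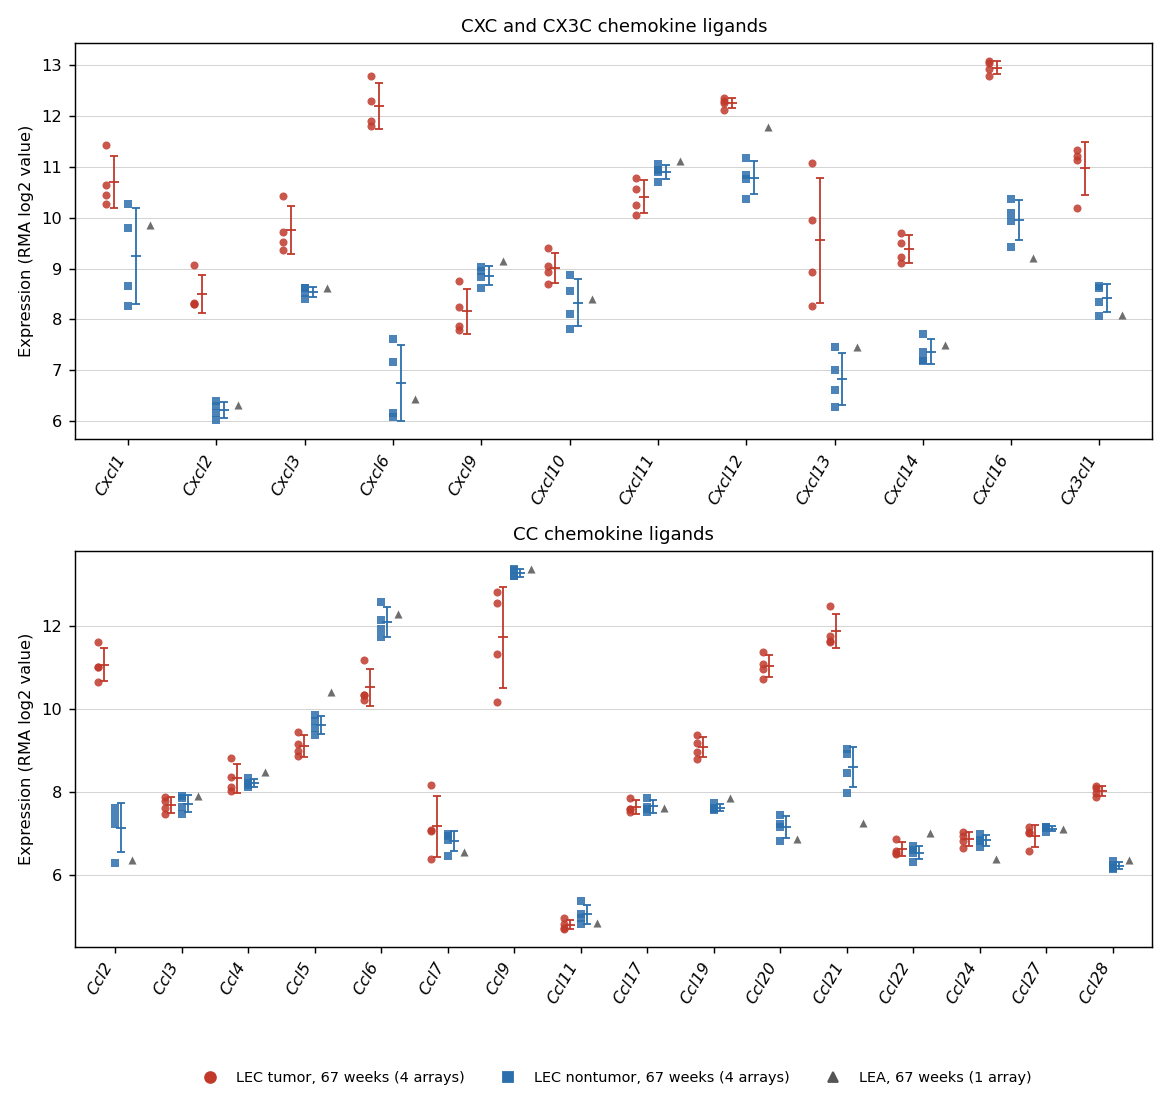
Values of the 12 CXC and CX3C ligands (top) and 16 CC ligands (bottom) in LEC tumor (red), LEC nontumor (blue) and LEA (grey) liver at 67 weeks; the vertical axis is the RMA log2 value, points are arrays, and bars give the mean and SD of 4 arrays. Cxcl6, Ccl2 and Ccl20 show wide gaps between red and blue points, while Ccl6 and Ccl9 lie lower in tumor than in nontumor liver.

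Cxcl16 and Cx3cl1 are the membrane-bound chemokines, which are shed by proteases and also hold leukocytes at the cell surface. Cxcl16, the ligand of Cxcr6, had values of 13.04, 12.93, 12.78 and 13.09 in tumor, against 9.42, 9.94, 10.38 and 10.09 in nontumor liver, and differed by 3.00 ± 0.18 (adjusted p = 4.4e-06). Cx3cl1, also called fractalkine, was 11.14, 11.21, 10.20 and 11.34 in tumor, against 8.08, 8.65, 8.62 and 8.35 in nontumor liver, a difference of 2.55 ± 0.25 (adjusted p = 4.7e-05). Tumor array 3 was the lowest of its group for both genes. Markers of bile duct and progenitor cells, which are epithelial like some sources of these ligands, were also higher in tumor, with 8 of 8 measured markers called, for example Krt7 by 4.61 and Epcam by 3.10. The part of those cells in these differences was not tested. In bulk RNA, more or fewer cells of a type and more or less RNA per cell cannot be told apart, here and in every comparison that follows.

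Cxcl12, a ligand that stromal cells make and that retains leukocytes through Cxcr4, was 12.26, 12.30, 12.13 and 12.36 in tumor, against 10.85, 11.17, 10.76 and 10.38 in nontumor liver. The LEA pool, at 11.79, lay between both groups. The difference between tumor and nontumor was 1.47 ± 0.15 (adjusted p = 6.2e-05), and both other probe sets of Cxcl12 were called in the same direction, by 0.56 and 0.67. Cxcl14, an epithelial chemokine whose receptor is debated, was 9.51, 9.70, 9.10 and 9.23 in tumor, against 7.18, 7.36, 7.72 and 7.21 in nontumor liver, a difference of 2.02 ± 0.16 (adjusted p = 1.7e-05). Its dimmer probe set differed by 0.24 and was not called, so the probe sets disagree on size. Cxcl13, which attracts B cells through Cxcr5, had values of 8.28, 8.93, 11.08 and 9.96 in tumor, against 6.61, 7.45, 7.0 and 6.27 in nontumor liver. The tumor arrays did not overlap the nontumor arrays but differed widely among themselves (SD 1.23), and the difference was 2.72 ± 0.55 (adjusted p = 0.00254). B and plasma cell markers Blnk, Jchain and Mzb1 were higher in tumor by 3.12, 2.25 and 1.55, while Ms4a1, which encodes CD20, differed by 0.17 and was not called.

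The ligands of Cxcr3, which interferon gamma induces and which attract activated T cells and NK cells, did not move together. Cxcl10 was 8.69, 9.05, 9.40 and 8.93 in tumor, against 7.81, 8.10, 8.87 and 8.55 in nontumor liver, higher by 0.69 ± 0.23 (adjusted p = 0.0299). Cxcl9 was 7.80, 7.86, 8.76 and 8.24 in tumor, against 8.63, 8.83, 8.96 and 9.04 in nontumor liver, and was called lower (-0.70 ± 0.20, adjusted p = 0.0153), and its other probe set was also called lower, at -1.19. The 4 tumor and 4 nontumor arrays overlapped for both. Cxcl11 was 10.05, 10.25, 10.79 and 10.57 in tumor, against 10.94, 10.90, 10.71 and 11.05 in nontumor liver (-0.48 ± 0.16, adjusted p = 0.0243). The calls of Cxcl10 and Cxcl11 were narrow. Cxcl10 lost its call without tumor array 2 or 3 or nontumor array 1 or 2 (adjusted p between 0.0643 and 0.0731) and under both rescalings (0.225 and 0.0507). Cxcl11 lost it without tumor array 1 or 2 or nontumor array 1 or 4 (adjusted p between 0.0526 and 0.0673). Ifng itself was near background on all 8 arrays.

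Among the 16 CC chemokines, 5 were higher in tumor, 3 were lower and 8 were not called, with a median difference of 0.06 that turned to -0.03 and -0.04 under the rescalings. Ccl2, which draws monocytes through Ccr2, was 10.66, 11.03, 11.61 and 11.01 in tumor, against 6.29, 7.44, 7.61 and 7.23 in nontumor liver. The lowest tumor array exceeded the highest nontumor array by about 3 units, and the difference was 3.93 ± 0.30 (adjusted p = 1.3e-05), or 15.3-fold. Ccl20, the ligand of Ccr6, was 11.37, 11.09, 10.74 and 10.98 in tumor, against 6.82, 7.23, 7.45 and 7.15 in nontumor liver, a difference of 3.88 ± 0.16 (adjusted p = 1.1e-06). Both were low in every single pool, between 6.36 and 7.70 for Ccl2 and between 6.88 and 7.27 for Ccl20.

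Ccl19 and Ccl21 bind Ccr7 and guide dendritic cells and naive T cells in lymphoid tissue. Ccl21 was 11.65, 11.76, 12.50 and 11.63 in tumor, against 7.99, 8.93, 9.04 and 8.47 in nontumor liver, higher by 3.28 ± 0.27 (adjusted p = 1.8e-05). Ccl19 was 9.19, 8.81, 8.97 and 9.38 in tumor, against 7.74, 7.60, 7.58 and 7.61 in nontumor liver, higher by 1.46 ± 0.12 (adjusted p = 2.1e-05). Neither had overlapping groups. Ltb, a subunit of the lymphotoxin that induces both chemokines in lymphoid stroma, was 10.74, 10.84, 10.50 and 11.10 in tumor, against 7.51, 7.97, 7.95 and 7.84 in nontumor liver (2.97 ± 0.15, adjusted p = 1.7e-06). Ccl28, a chemokine of mucosal epithelium, was 8.16, 7.88, 7.97 and 8.11 in tumor, against 6.16, 6.35, 6.24 and 6.17 in nontumor liver, higher by 1.80 ± 0.09 (adjusted p = 1.6e-06).

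The 3 CC chemokines that fell were Ccl6, Ccl9 and Ccl5. Ccl6 and Ccl9 are rodent chemokines that bind Ccr1 in mouse. Ccl6 was 10.34, 10.35, 11.20 and 10.23 in tumor, against 12.15, 12.58, 11.93 and 11.74 in nontumor liver (-1.57 ± 0.24, adjusted p = 6.2e-04), with no overlap. Ccl9 was 12.57, 11.34, 12.84 and 10.18 in tumor, against 13.35, 13.38, 13.21 and 13.21 in nontumor liver (-1.56 ± 0.51, adjusted p = 0.0243). Nontumor arrays and all 4 single pools agreed closely for Ccl9, between 13.15 and 13.38, and the tumor arrays spread widely below them. Without tumor array 2 the adjusted p of Ccl9 was 0.0636, and without nontumor array 1 it was 0.0507. The median of 11 hepatocyte markers ran in the same order over the tumor arrays, at 12.17, 11.09, 12.66 and 9.79 on tumor arrays 1 to 4, against 13.28 to 13.72 on nontumor arrays, and 9 of the 11 markers were called lower. The summed linear level of those markers was 20612 to 95156 in tumor, against 114773 to 133397 in nontumor liver. The part of hepatocytes in the fall of Ccl9 was not tested.

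Ccl5, a chemokine that draws T cells and monocytes, was 9.17, 8.99, 9.46 and 8.86 in tumor, against 9.71, 9.87, 9.37 and 9.55 in nontumor liver (-0.50 ± 0.15, adjusted p = 0.0166), and the groups overlapped. Ccl3 and Ccl4, chemokines made by macrophages, were not called, at -0.03 and 0.11. Ccl7, a monocyte chemokine like Ccl2, was 6.40, 7.07, 8.18 and 7.08 in tumor, against 6.86, 6.47, 6.99 and 6.95 in nontumor liver, and its difference of 0.37 ± 0.32 was not called (adjusted p = 0.342). The other 5 CC chemokines with no call (Ccl11, Ccl17, Ccl22, Ccl24 and Ccl27) had differences from -0.25 to 0.09, and Ccl11 was near background on every array.

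Of the 12 chemokine receptors, 4 were higher in tumor, 3 were lower and 5 were not called (38.8% of all genes were higher and 29.2% lower). Cxcr4, the receptor of Cxcl12, had the largest difference, with values of 10.47, 10.33, 10.70 and 9.82 in tumor, against 7.81, 7.66, 7.78 and 7.68 in nontumor liver. Its difference was 2.59 ± 0.17 (adjusted p = 5.7e-06), and both other probe sets were called higher, by 2.50 and 2.89. Ccr1, a receptor of monocytes and neutrophils, was 7.50, 8.00, 7.81 and 7.66 in tumor, against 6.68, 7.16, 6.39 and 6.43 in nontumor liver (1.08 ± 0.18, adjusted p = 9.2e-04). Cxcr3, the receptor of the interferon-induced group, was 8.03, 8.11, 8.22 and 7.79 in tumor, against 7.34, 7.19, 7.44 and 7.24 in nontumor liver (0.74 ± 0.10, adjusted p = 3.6e-04). Its 3 ligands in this group did not move together, as given above. Cx3cr1, the receptor of Cx3cl1, was 8.11, 8.25, 8.31 and 7.92 in tumor, against 7.67, 7.65, 7.49 and 7.44 in nontumor liver (0.58 ± 0.10, adjusted p = 0.00122).

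Receptors of the ligands with large differences were not all called. Ccr2, the receptor of Ccl2, was 6.87, 6.85, 7.12 and 6.47 in tumor, against 6.27, 6.30, 7.07 and 6.93 in nontumor liver, and its difference of 0.19 ± 0.21 was not called (adjusted p = 0.459). Ccr6, the receptor of Ccl20, averaged 7.40 ± 0.14 in tumor and 7.38 ± 0.14 in nontumor liver (SD, n = 4 each), and its difference of 0.02 turned to -0.08 under both rescalings. Cxcr2, a receptor of the neutrophil-attracting ligands, averaged 7.42 ± 0.17 in tumor and 7.35 ± 0.08 in nontumor liver and was not called (adjusted p = 0.505). Cxcr1, the other receptor of that group, was 6.22, 6.24, 6.24 and 6.38 in tumor, against 6.87, 6.52, 6.88 and 7.21 in nontumor liver, and was called lower (-0.60 ± 0.13, adjusted p = 0.0043). The other receptors called lower, Ccr3 of eosinophils and Ccr4 of T cells, named after their values were seen, differed by -0.35 and -0.37. Neutrophil markers beside this group were called higher for 6 of 9 genes and lower for 0. Among the higher were S100a8 by 1.25, Lcn2 by 1.55 and Csf3r by 0.85. The granule genes Camp and Mmp8, at or near background, were not called. Fcnb, above background on all 12 arrays, was not called either, at -0.37 (adjusted p = 0.0509). The summed linear level of the 9 markers was 17330 to 21644 in tumor, against 4764 to 10438 in nontumor liver, and Lcn2, which hepatocytes and other epithelia also make, was 72.2% to 82.6% of it in tumor and 60.2% to 74.3% in nontumor liver. Without Lcn2 the sum was 3030 to 6018 in tumor, against 1895 to 2856 in nontumor liver. The part of neutrophils in the ligand differences was not tested. Cxcr5, the receptor of Cxcl13, averaged 9.85 ± 0.04 in tumor and 9.90 ± 0.15 in nontumor liver and was not called.

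**Figure D3:**
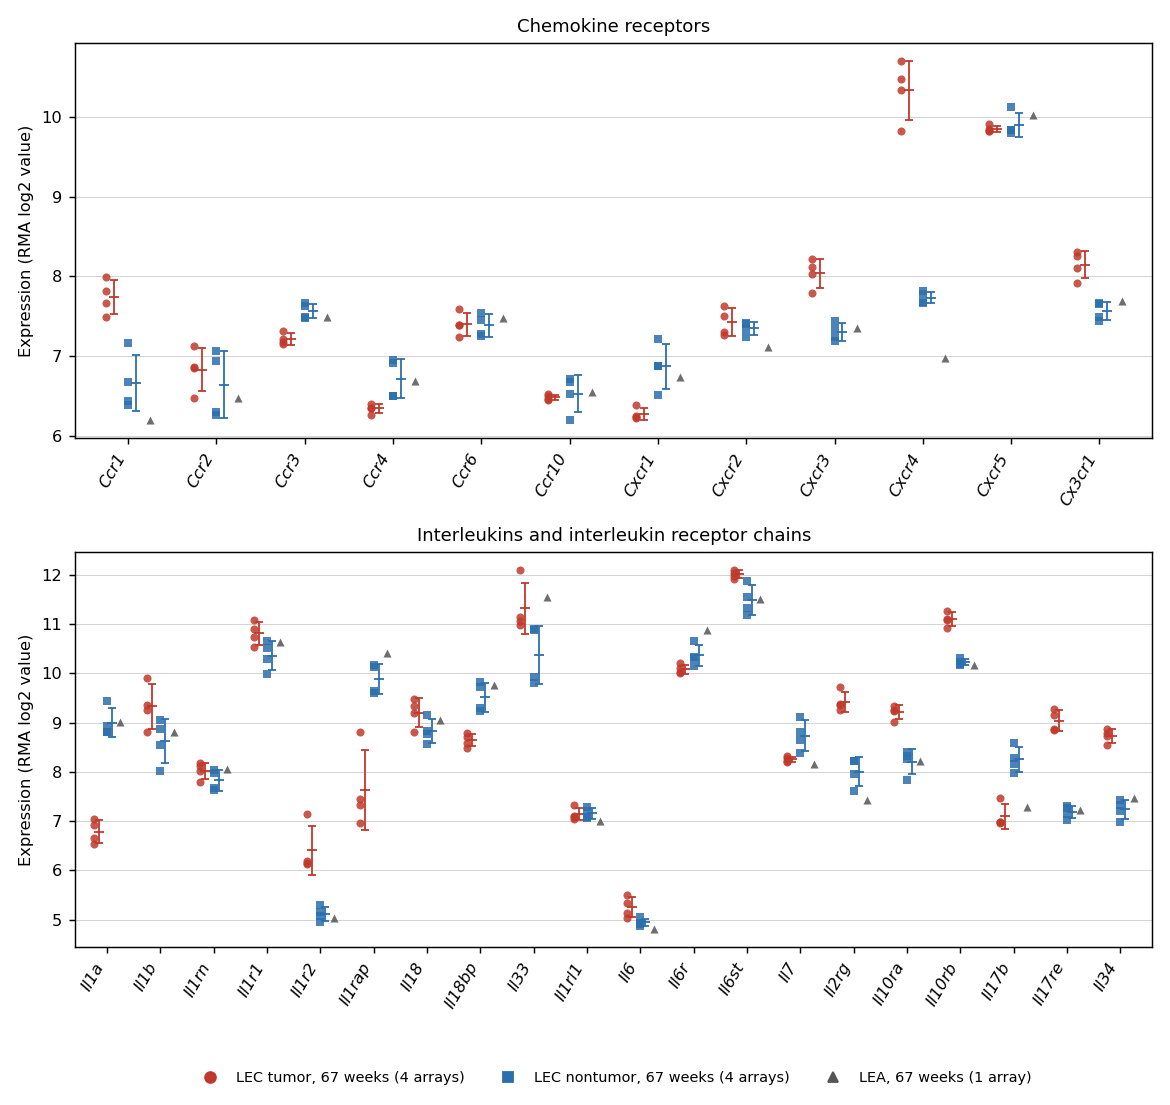
Values of the 12 chemokine receptors (top) and of 20 interleukins and interleukin receptor chains (bottom) in LEC tumor (red), LEC nontumor (blue) and LEA (grey) liver at 67 weeks; the vertical axis is the RMA log2 value, points are arrays, and bars give the mean and SD of 4 arrays. Cxcr4 shows the widest gap among the receptors of the top panel, and Il1a and Il1rap lie lower in tumor than in nontumor liver.

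In the interleukin 1 family, Il1a, Il36b, the coreceptor Il1rap and the inhibitor Il18bp were called lower in tumor, Il1b, Il33, Il1r1 and Il1r2 were called higher, and Il1rn, Il18, Il36rn, Il1rl1 and Il1rl2 were not called. Il1a, an alarmin released from damaged cells, was 6.91, 6.53, 7.04 and 6.66 in tumor, against 9.43, 8.93, 8.82 and 8.82 in nontumor liver (-2.21 ± 0.16, adjusted p = 1.2e-05). Its other probe set differed by -2.34 and was also called. In the single pools Il1a lay between 8.86 and 9.37, with the nontumor arrays. Il1rap, the coreceptor that interleukin 1 and interleukin 33 signalling share, was 7.46, 7.33, 8.82 and 6.96 in tumor, against 10.14, 10.18, 9.59 and 9.65 in nontumor liver (-2.25 ± 0.36, adjusted p = 7.6e-04). The tumor arrays of Il1rap ran in the same order as the hepatocyte markers given above, and the part of hepatocytes was not tested. The dimmer probe set of Il1rap differed by -0.13 and was not called, so the fall rests on 1 of 2 probe sets.

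Il1b, the form that caspase 1 activates, was 9.26, 9.35, 9.91 and 8.80 in tumor, against 8.88, 9.06, 8.55 and 8.03 in nontumor liver, with overlap (0.70 ± 0.27, adjusted p = 0.0462). Its call was lost without any of tumor arrays 1, 2 and 3 or nontumor arrays 1, 3 and 4 (adjusted p between 0.0523 and 0.107) and under both rescalings (0.183 and 0.0702). Il1r1, the signalling receptor, averaged 10.82 ± 0.24 in tumor and 10.36 ± 0.29 in nontumor liver (SD, n = 4 each, adjusted p = 0.037), while its other probe sets differed by -0.12 and -0.48 without a call. The call of Il1r1 was lost without tumor array 1, 2 or 4 or nontumor array 2 or 3 (adjusted p between 0.0602 and 0.0953) and under both rescalings (0.227 and 0.0874). Il1r2, the decoy receptor, was 6.15, 6.13, 7.15 and 6.20 in tumor, against 5.08, 5.16, 5.29 and 4.96 in nontumor liver (adjusted p = 0.00105). All 4 nontumor values were near background, so tumor was at least 1.37-fold higher, counted against the highest bacterial probe set of each nontumor array. Il1rn, the receptor antagonist, averaged 8.03 ± 0.16 in tumor and 7.83 ± 0.21 in nontumor liver and was not called.

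Il33, a nuclear alarmin of the same family, was 11.06, 10.97, 12.09 and 11.15 in tumor, against 10.87, 10.90, 9.92 and 9.80 in nontumor liver, and the LEA pool was at 11.55 (0.95 ± 0.33, adjusted p = 0.0321). Nontumor arrays formed a higher and a lower pair, and the higher pair came close to the tumor arrays. The call of Il33 was lost without tumor array 3 or nontumor array 3 or 4 (adjusted p between 0.0679 and 0.0859), and its other probe set, at 0.59, was not called. Its receptor chain Il1rl1 averaged 7.14 ± 0.12 in tumor and 7.16 ± 0.11 in nontumor liver. Il18, a cytokine that caspase 1 also activates, averaged 9.20 ± 0.29 in tumor and 8.83 ± 0.25 in nontumor liver and was not called (adjusted p = 0.0801). That difference was called without tumor array 1 (0.50, adjusted p = 0.0209) and without nontumor array 2 (0.48, adjusted p = 0.0307). Il18bp, the secreted inhibitor of Il18, was 8.72, 8.60, 8.78 and 8.50 in tumor, against 9.72, 9.82, 9.24 and 9.29 in nontumor liver, and was called lower (-0.87 ± 0.14, adjusted p = 8.8e-04).

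Of the interleukin 6 family chains among the members, only Il6st was called. Il6st, the gp130 chain that interleukin 6, interleukin 11 and Lif all use, was 11.97, 12.04, 12.11 and 11.92 in tumor, against 11.55, 11.88, 11.33 and 11.19 in nontumor liver (0.52 ± 0.14, adjusted p = 0.0107). Its 3 other probe sets were called in the same direction, by 0.84 to 1.31. Il6r, the specific chain for interleukin 6, averaged 10.09 ± 0.09 in tumor and 10.37 ± 0.22 in nontumor liver (adjusted p = 0.056). That difference was called lower under both rescalings (-0.53, adjusted p = 0.00222, and -0.38, adjusted p = 0.0145) and without nontumor array 3 (-0.35, adjusted p = 0.0249). Il11ra1, the chain for interleukin 11, averaged 9.35 ± 0.13 in tumor and 9.03 ± 0.27 in nontumor liver (adjusted p = 0.063), and was called without tumor array 3 (0.38, adjusted p = 0.0467) or nontumor array 2 (0.42, adjusted p = 0.0147). Il6 was called higher (adjusted p = 0.0311) but was near background on all 12 arrays, at 5.04 to 5.49 in tumor, against 4.88 to 5.05 in nontumor liver, so no fold is given. Of 3 further ligands of this family outside the naming rule, Lif was 6.24, 6.36, 6.40 and 6.27 in tumor, against 6.94, 6.68, 6.95 and 6.89 in nontumor liver, and was called lower (-0.55 ± 0.08, adjusted p = 5.3e-04). Osm was also called lower, at -0.24 with overlapping groups (adjusted p = 0.0481). Clcf1, which signals through Il6st and Lifr, was called higher (adjusted p = 4.1e-05), but it was near background on all 4 nontumor arrays and 1 tumor array, so no fold is given.

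Of the 24 interleukin receptor chains, 9 were higher in tumor, 4 were lower and 11 were not called, with 7 and 8 higher and 6 lower under the rescalings. As deposited, 38.8% of all genes were higher and 29.2% lower. Il2rg and both chains of the interleukin 10 receptor were among those that rose. Il2rg, the common gamma chain of receptors for several interleukins that act on lymphocytes, was 9.38, 9.36, 9.72 and 9.25 in tumor, against 7.60, 7.97, 8.22 and 8.23 in nontumor liver (1.42 ± 0.16, adjusted p = 9.4e-05). Chains that pair with Il2rg were not called higher by the probe sets used. Il2ra and Il2rb, at -0.03 each, and Il9r, at -0.15, were not called, and Il4r and Il7r are given below. Il10ra, the binding chain for interleukin 10, was 9.24, 9.26, 9.33 and 9.01 in tumor, against 8.32, 8.41, 8.27 and 7.85 in nontumor liver (1.0 ± 0.13, adjusted p = 2.5e-04), but its dimmer probe set differed by -0.12 without a call. Il10rb, shared with the interleukin 22 receptor, was 11.11, 11.09, 10.93 and 11.28 in tumor, against 10.17, 10.32, 10.20 and 10.24 in nontumor liver (0.87 ± 0.09, adjusted p = 5.0e-05). None of the 3 had overlapping groups. Il3ra, a chain of the interleukin 3 receptor, was higher by 0.93, and Il16, a ligand of CD4, by 0.29, both named after their values were seen. T cell markers Cd3d, Cd3e and Cd3g were higher in tumor by 1.64, 1.45 and 2.76, whereas the cytotoxic genes Gzma, Gzmb and Prf1 were lower, at -1.13, -0.37 and -0.37. Over the T and NK cell list, 6 of 17 markers were called higher and 6 lower, with a summed linear level of 4770 to 5475 in tumor, against 2748 to 2979 in nontumor liver. The part of lymphocytes in the receptor differences was not tested.

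Among growth-supporting interleukins, Il34, a second ligand of the macrophage receptor Csf1r, was 8.72, 8.55, 8.87 and 8.79 in tumor, against 7.21, 6.98, 7.44 and 7.34 in nontumor liver (1.49 ± 0.11, adjusted p = 1.4e-05). Csf1r was also called higher, by 0.68. Csf1, its other ligand, was not called by its brightest probe set, at 0.02, while 2 of its 3 other probe sets were called higher, by 2.15 and 0.68. Macrophage and Kupffer cell markers moved both ways, with 4 of 11 called higher and 3 lower, and the Kupffer cell genes Clec4f and Cd5l were at -3.85 and -4.82. Their summed linear level was 21157 to 25469 in tumor, against 21304 to 33800 in nontumor liver. Il15, which sustains NK cells and memory T cells, averaged 7.51 ± 0.08 in tumor and 6.92 ± 0.48 in nontumor liver (SD, n = 4 each, adjusted p = 0.0335), and its call was lost without any single array other than nontumor arrays 2 and 4 (adjusted p between 0.0537 and 0.0701) or under either rescaling (0.0649 and 0.0602). Il7, a lymphocyte growth factor, was 8.28, 8.32, 8.22 and 8.19 in tumor, against 8.81, 9.12, 8.65 and 8.39 in nontumor liver, and fell (-0.49 ± 0.14, adjusted p = 0.0143), as did its other probe set, at -0.65. Il7r was not called by its brighter probe set, at 0.22, and was called higher by the dimmer one, at 0.93.

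In the interleukin 17 family, Il17re, a chain for interleukin 17C in human and mouse that epithelial cells carry, rose and the ligand Il17b fell. Il17re was 8.86, 9.16, 8.87 and 9.27 in tumor, against 7.26, 7.30, 7.15 and 7.03 in nontumor liver (1.86 ± 0.12, adjusted p = 4.8e-06), and its other probe set agreed at 1.81. Il17b was 6.98, 6.98, 7.47 and 6.96 in tumor, against 8.59, 8.29, 7.99 and 8.17 in nontumor liver (-1.16 ± 0.16, adjusted p = 2.9e-04). The single pools of Il17b were at 7.29 in LEA and 7.32, 7.46 and 7.82 in LEC at 4, 26 and 39 weeks, below all nontumor arrays, and all but the 39 week pool lay within the tumor range. Il17ra, the common chain of this family, was 9.73, 9.76, 9.95 and 9.89 in tumor, against 9.53, 9.59, 9.32 and 9.37 in nontumor liver (0.38 ± 0.09, adjusted p = 0.00541), and was not called after quantile normalization again (0.10, adjusted p = 0.282).

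Most falls among the remaining interleukins were small and lay at low signal. Of the 23 members called lower, 13 differed by less than 0.5 in size and 5 by more than 1. Il4, Il5, Il13, Il17f, Il2, Il3 and Il36b, named after their values were seen, are largely products of T cells or, for Il36b, of epithelium, and their differences ran from -0.47 to -0.21. Il5, Il17f and Il36b were near background on all 12 arrays, so no fold is given for them. Il13ra2, the decoy receptor of interleukin 13, averaged 7.39 ± 0.16 in tumor and 7.78 ± 0.25 in nontumor liver. Il20rb, a chain of the receptors for interleukins 20 and 24, averaged 6.52 ± 0.13 in tumor and 7.13 ± 0.35 in nontumor liver (adjusted p = 0.0108). Il13ra2 lost its call without tumor array 2 or 3 or nontumor array 1 (adjusted p between 0.0513 and 0.0857). Il4r, the chain shared by the receptors for interleukins 4 and 13, averaged 8.86 ± 0.15 in tumor and 9.10 ± 0.08 in nontumor liver, and its call (adjusted p = 0.0444) was lost without any of 6 of the 8 arrays (all but tumor array 3 and nontumor array 3; adjusted p between 0.0672 and 0.122). The 27 probe sets for bacterial RNA, which measure no rat gene, were themselves lower in tumor for 26 of 27, with a median of -0.16 and a range from -0.69 to 0.08, and 22 had no overlap between groups. The part of that shift in the small falls was not tested. Over the class of interleukin ligands and inhibitors, 6 of 27 members were called higher and 11 lower as deposited, 3 and 8 after quantile normalization again, and 3 and 14 with array medians subtracted.

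**Figure D4:**
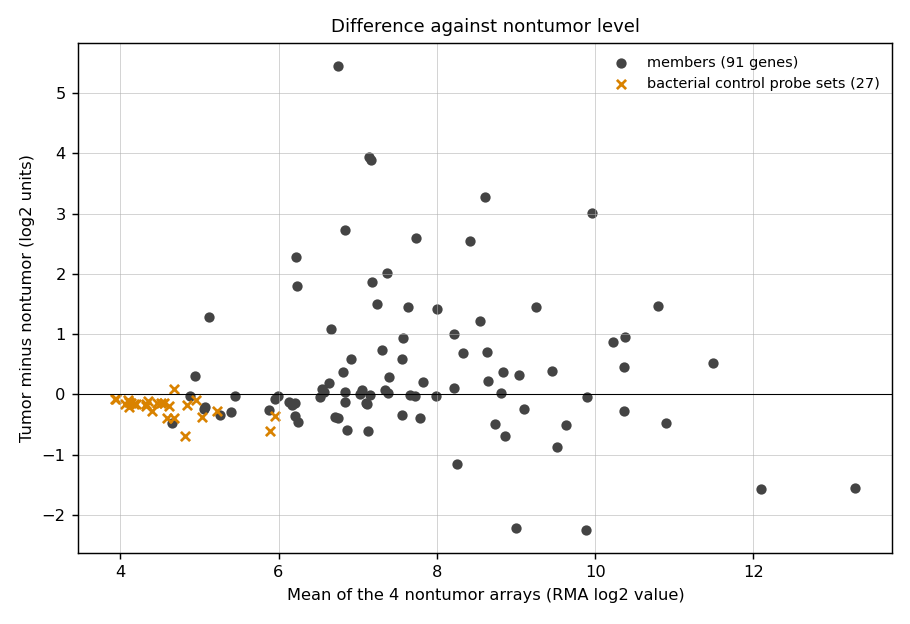
Tumor minus nontumor difference (vertical axis, log2 units) against the mean of the 4 nontumor arrays (horizontal axis, RMA log2 value) for the 91 members (dots) and the 27 probe sets for bacterial RNA (orange crosses). The crosses lie between -0.69 and 0.08 at the low end, beside the dim members with small falls, while the rises past 2 units start from nontumor means above 6.

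Genes of the same pathways outside the naming rule were counted from fixed lists. Of 8 atypical receptors and platelet or XC chemokines, 4 were higher in tumor and 4 lower. Pf4, a platelet and megakaryocyte chemokine, was 10.42, 10.59, 10.72 and 10.44 in tumor, against 8.47, 8.69, 8.41 and 8.61 in nontumor liver (2.00 ± 0.10, adjusted p = 1.6e-06). Ppbp, another platelet chemokine, was called lower, at -0.50 (adjusted p = 0.00279), and was near background on 1 tumor array. Ackr3, a scavenger of Cxcl12, was 8.47, 8.88, 9.45 and 8.75 in tumor, against 7.53, 7.41, 7.02 and 7.0 in nontumor liver (1.65 ± 0.21, adjusted p = 2.1e-04). Ackr4, a scavenger of Ccl19, Ccl21 and Ccl20, was 7.15, 6.58, 7.62 and 6.81 in tumor, against 8.40, 8.59, 8.10 and 8.57 in nontumor liver (-1.38 ± 0.22, adjusted p = 6.4e-04). The Ccr7 and Ccr6 ligands thus differed in the direction opposite to their scavenger. Of 24 other cytokines and receptors, 9 were higher and 8 lower in tumor, and Tnf was not called by its brighter probe set, at 0.14, and was called higher by the dimmer one, at 1.60.

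Of 31 signalling genes downstream, 15 were higher and 5 lower in tumor, against 38.8% and 29.2% of all genes. Their median difference was 0.27, against 0.07 over all genes. The 4 listed subunits of NF-kappaB and 2 of its feedback inhibitors were called higher. Relb was 10.46, 10.66, 9.92 and 10.82 in tumor, against 8.09, 8.46, 8.44 and 8.48 in nontumor liver (2.10 ± 0.19, adjusted p = 2.9e-05). Nfkb1, Nfkb2 and Rela were higher by 1.75, 1.65 and 0.95, and the inhibitors Nfkbia and Tnfaip3 by 1.61 and 1.42. The inhibitor Nfkbib and the related gene Nfkbiz, at -0.10 and 0.43, were not called. The dimmer probe set of Nfkbiz was called lower, at -0.27 (adjusted p = 0.0416). On the interleukin 1 receptor side, the inhibitory kinase homologue Irak3 and the kinase Irak2 were higher, at 1.22 and 0.38, and the kinases Irak1 and Irak4 and the inhibitory receptor Sigirr were lower, at -0.59, -0.47 and -0.89. The adaptor Myd88 was not called (adjusted p = 0.808), and the ligase Traf6 was called higher by a narrow margin, at 0.27 (adjusted p = 0.0494), with 1 of its 3 other probe sets. Among interleukin 6 family genes, Stat3 and Socs3 were higher, by 0.70 and 0.33, and Lifr, the receptor chain for Lif, was lower, at -0.53, with its other probe set not called.

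In LEC nontumor compared with LEA liver at 67 weeks, 0 of the 91 members passed limma's adjusted p under 0.05 in either direction, against 0.232% of all genes higher and 0.331% lower. At an unadjusted p under 0.05, 7 members were higher and 7 lower (7.69% each), against 5.12% and 7.24% of all genes. The comparison set 4 nontumor arrays against a single LEA pool, whose spread was assumed to be that of the replicated groups. Differences ran from -1.18 for Il33 to 1.34 for Ccl21. Ccl21 was 7.99, 8.93, 9.04 and 8.47 in nontumor liver, against 7.27 in the LEA pool (1.34 ± 0.42, adjusted p = 0.254). Cxcl12 was 10.85, 11.17, 10.76 and 10.38 in nontumor liver, against 11.79 in the LEA pool, and had the lowest adjusted p of any member (-1.0 ± 0.24, adjusted p = 0.134). For both, all 4 nontumor arrays lay on the same side of the LEA pool, a pattern whose share over all genes was not counted.

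Other members with nontumor arrays on one side of the LEA pool included Il17b, which was 8.59, 8.29, 7.99 and 8.17 in nontumor liver, against 7.29 in LEA (0.97 ± 0.25, adjusted p = 0.161). Cxcr4 was 7.81, 7.66, 7.78 and 7.68 in nontumor liver, against 6.98 in LEA (0.76 ± 0.26, adjusted p = 0.3). Ccl5 was 9.71, 9.87, 9.37 and 9.55 in nontumor liver, against 10.41 in LEA (-0.79 ± 0.24, adjusted p = 0.232). None of these passed the test, and the single LEA pool limits what could be called. Outside the rule, Lifr was called lower in nontumor liver, at 8.30, 8.42, 7.67 and 8.07, against 11.47 in LEA (adjusted p = 0.0005). The LEC pools at 4, 26 and 39 weeks were also below LEA, at 8.14, 7.95 and 8.07, so the difference was not limited to 67 weeks. The nontumor arrays also enter the comparison with tumor, so the values of both comparisons are not independent.

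Across the ages of LEC rats, each pool was a single array, so the differences have no replicate check. Past 2-fold from the 4 week pool, 3 members were higher at 26 weeks (3.30%, against 2.57% of all genes) and 1 was lower (1.10%, against 0.563%). At 39 weeks 4 members were higher (4.40%, against 2.51%) and 1 was lower (1.10%, against 0.549%). In nontumor liver at 67 weeks, by the mean of 4 arrays, 3 were higher (3.30%, against 1.58%) and 1 was lower (1.10%, against 0.802%). Counts this small lie close to the shares of all genes. The 3 comparisons share the 4 week pool, and the 26 and 39 week pools are those with the male pattern of Xist and Eif2s3y, so that age and this difference cannot be told apart.

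Il7 was 7.46 at 4 weeks, 8.60 at 26 weeks, 8.75 at 39 weeks and 8.39 to 9.12 in nontumor liver at 67 weeks, so that every later value lay above the 4 week pool. The LEA pool at 67 weeks was at 8.16. Ccl21 was 7.51 at 4 weeks, 8.04 at 26 weeks, 8.94 at 39 weeks and 7.99 to 9.04 in nontumor liver at 67 weeks, and the 39 week value lay within the later range. Cxcl1 was 7.45 at 4 weeks, 8.91 at 26 weeks, 7.84 at 39 weeks and 8.26 to 10.28 in nontumor liver, with no steady order. Its LEA value of 9.86 lay within the nontumor range. Cxcl14 was 7.01 at 4 weeks, 8.02 at 26 weeks, 8.11 at 39 weeks and 7.18 to 7.72 in nontumor liver, and Cxcr4 was 7.15, 8.05 and 8.24 at those ages, with 7.66 to 7.81 in nontumor liver. Apart from tumor, both were highest in the 26 and 39 week pools.

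Lower than in the 4 week pool by at least 2-fold were Il33 at 26 and 39 weeks and Cxcl13 in nontumor liver at 67 weeks. Il33 was 10.89 at 4 weeks, 9.71 at 26 weeks, 9.26 at 39 weeks and 9.80 to 10.90 in nontumor liver at 67 weeks, where 2 arrays returned to the 4 week level. Cxcl13 was 8.53 at 4 weeks, 8.25 at both 26 and 39 weeks, and 6.27 to 7.45 in nontumor liver. The nontumor arrays of Cxcl13 lay below all 3 younger pools, and the LEA pool, at 7.46, lay just above the nontumor range. The members with the largest tumor differences, Cxcl6, Ccl2 and Ccl20, stayed within 1 unit of the 4 week pool at every age in nontumor tissue by their means, for example 7.13, 7.70, 7.64 and 7.15 for Ccl2 at 4, 26, 39 and 67 weeks.

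**Figure D5:**
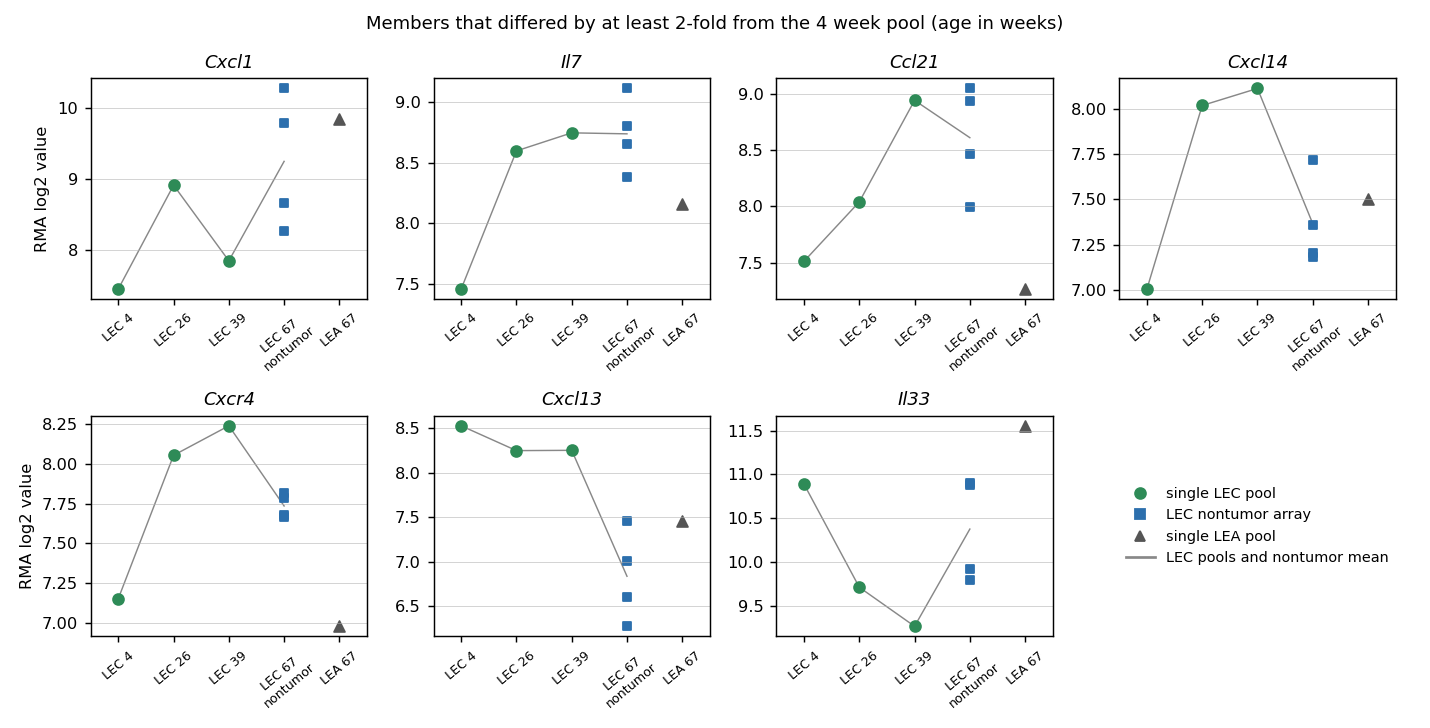
The 7 members that differed at least 2-fold from the 4 week pool in a later LEC group (vertical axis, RMA log2 value, scaled for each gene; horizontal axis, group with age in weeks, not to scale). Green points are single LEC pools, blue squares the 4 nontumor arrays, grey triangles the single LEA pool, and the line joins the LEC pools and the nontumor mean; Il7 lies higher in every later group, and Cxcl13 is lowest in nontumor liver at 67 weeks.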

How the data were processed

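The labels' protocols give 3 ug of total RNA per array, over 12 arrays. Values are log2 expression values as deposited by the authors; the submitters' processing notes name RMA and R 2.6.1. This method corrects background, makes the arrays' distributions equal and combines the probes of each probe set. Whether all 12 arrays were normalized together is not given in the sources used here.

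Of 31099 probe sets, 57 controls were left out and 31042 were tested. GEO's platform annotation gave 20826 of them a single gene, 436 several and 9780 none listed here, and symbols were updated through Entrez identifiers (20758 matched). Group means over the 12 arrays were fitted with limma 3.58.1 in R 4.3.3, with 6 residual and 2.84 prior degrees of freedom, two-sided p-values and Benjamini-Hochberg adjustment over all tested probe sets. Lone pools add nothing to the spread, and ages were compared with the 4 week pool by 2-fold differences alone. The number of arrays limits the precision.

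The genes named were the 12 largest rises and 8 largest falls in tumor among called members whose groups do not overlap, the members past 2-fold by age, and fixed ligand and receptor sets. The members, lists and rule were chosen with earlier results of these data known. Marker lists covered neutrophils, macrophages, T and NK cells, B cells, endothelium, matrix, bile duct and hepatocytes. Alternatives were quantile normalization again, array medians subtracted, dim probe sets left out, a trended robust prior, only the compared groups in the fit, means over probe sets, a 2-fold threshold, symbols not updated, the title number as a block, and each replicate left out. Promoters are RefSeq's (GRCr8). Python 3.11.15 and matplotlib 3.10.9 drew the figures.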

Additional observations from a re-analysis of the deposited data

Results flagged for a closer look

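For each of the 60 named members, the highest and the lowest of the 4 tumor arrays and of the 4 nontumor arrays were set against the other 3 by Dixon's ratio, 120 groups in all. In 8 groups 1 array stood apart, and chance alone gives about 1 in 20 groups, so the count lay near the chance rate. The genes share the same arrays, and the share over all genes was not counted. Tumor array 3 was the array in 6 of the 8. Its Ccl21 value was 12.50, with the next tumor array at 11.76, and its Cxcl2 value was 9.07, with the next at 8.33. Its Ccl6 value was 11.20 (next 10.35) and its Il17b value 7.47 (next 6.98). Its Il33 value was 12.09 (next 11.15) and its Il1r2 value 7.15 (next 6.20). For all 6 genes it was the highest tumor array, including Ccl6 and Il17b, which were lower in tumor than in nontumor liver. The same array had the highest median of neutrophil markers among the tumor arrays (8.24, against 7.40, 7.12 and 7.30 on tumor arrays 1, 2 and 4) and the highest median of hepatocyte markers (12.66). On nontumor arrays the neutrophil median was 7.73, 7.70, 7.56 and 7.65, above that on tumor arrays 1, 2 and 4. The part of those cells was not tested. The remaining flags were tumor array 4 for Cxcr1, at 6.38 with the next array at 6.24, and nontumor array 1 for Cxcr5, at 10.13 with the next at 9.84.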

How the results depend on the processing

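Counts of members called in tumor against nontumor (34 higher, 23 lower) fell to 20 higher and 5 lower with a 2-fold threshold, and to 12 lower without dim probe sets, where 51 of 91 members remained in the fit. Leaving out 1 replicate gave 29 to 33 higher and 17 to 24 lower. In LEC nontumor against LEA, 0 members were called under each of the alternatives run, and leaving out 1 nontumor replicate gave 0 in each direction. With means over probe sets, 2 members were past 2-fold higher at 39 weeks and 2 lower in nontumor liver at 67 weeks. The specimens were paired, but no label ties the title numbers to the pairs, and the correlations of same-numbered deviations (0.05, 0.14, -0.08 and 0.14) do not settle it. With the replicate block 32 members were higher and 21 lower; Il33, Il6, Il4r and Il13ra2 lost their calls (adjusted p = 0.062, 0.0615, 0.0901 and 0.0744) and Il6r gained one (0.0335). Over the named members in tumor against nontumor, 890 of 1006 alternative values kept direction and call. Of the rest, 83 lost the call, 12 gained it and 21 turned direction. Direction and call were kept throughout by 25 of 60 members. The fit of the compared groups alone could change none of these values, and symbols not updated left the set of member genes unchanged. Both settings add to the count kept without testing it. The members that turned had no call, except Il1r1, which turned to -0.05 as a mean over probe sets. After quantile normalization again, Ccr6 was at -0.08, Ccl4 at -0.13, Cxcr2 at -0.02, Il7r at -0.06 and Il10 at 0.13. With array medians subtracted, Ccr6 was at -0.08 and Cxcr2 at -0.03. With 1 replicate left out, Ccl3 ran from -0.11 to 0.04, Il1rl1 from -0.08 to 0.02, Ccl4 from -0.05 to 0.21, Ccr6 from -0.04 to 0.07, Cxcr5 from -0.08 to 0.03 and Il10 from -0.09 to 0.05. The cause was not tested. Cxcr5 was called lower after quantile normalization again (-0.32, adjusted p = 0.00983). Dim members near the bacterial probe sets are limited by signal over background.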

Other observations

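Markers of matrix and stellate cells, a further source of chemokines such as Cxcl12 and Ccl2 in liver, were higher in tumor for 12 of 13 genes, with a summed linear level of 35086 to 46084 in tumor, against 6173 to 8944 in nontumor liver. Lum, a matrix proteoglycan, differed by 5.45 and Col1a1, a chain of collagen I, by 2.80. Of 10 endothelial markers, 5 were higher and 4 lower in tumor. Genes of liver sinusoids moved both ways, with Stab2, Fcgr2b and Lyve1 lower, at -3.12, -1.53 and -1.01, and Stab1 higher, at 1.29. Vwf, a marker of larger vessels, was higher, at 1.53. The summed level of bile duct and progenitor markers was 31530 to 36945 in tumor, against 1818 to 5688 in nontumor liver. For B and plasma cells, 3 of 7 markers were called higher and 0 lower. Their summed level was 16077 to 17735 in tumor, against 8352 to 8996 in nontumor liver. Bright markers weigh most in such a sum, here Jchain, at a mean of 12.92 in tumor and 10.67 in nontumor liver, and Xbp1, at 12.22 and 12.00. Cd79b, Ms4a1, Sdc1 and Xbp1 were not called, at -0.23, 0.17, -0.12 and 0.21. The part of these cells in the chemokine differences was not tested.

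Further cytokines outside the naming rule also differed. Tslp, an epithelial cytokine, was 6.45, 6.37, 6.53 and 6.38 in tumor, against 4.99, 5.11, 5.27 and 5.20 in nontumor liver (adjusted p = 5.2e-06). All 4 nontumor values of Tslp were near background, so tumor was at least 1.40-fold higher, and its receptor chain Crlf2 was not called, at 0.13. Both chains of the interferon gamma receptor, Ifngr1 and Ifngr2, were higher, by 1.18 and 1.30, while Ifng was near background.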
